A study of Xenopus laevis with 9 samples.

Results

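The otx and crx genes encode homeodomain transcription factors of the bicoid type. They were chosen as all probe sets that the platform annotation gives to otx1.L, otx2.L, otx2.S or crx.S alone, which were 6 of the 15491 non-control probe sets on the array and 4 of its 7531 gene symbols. One probe set each stood for otx1.L and otx2.S, and a pair each for otx2.L and crx.S. The suffixes .L and .S mark the homeologs (gene copies) of this allotetraploid frog, and since probes can cross-hybridise between copies, a contrast of .L with .S is uncertain. RNA came from stage 26 tailbud embryos of Xenopus laevis, the African clawed frog, and was hybridised to Affymetrix arrays. The 3 tissues were the primary mouth, where the first mouth opening forms, an anterior dorsal piece of the head, and a ventral piece with the cement gland (an adhesive, mucus-secreting organ). Each tissue had 3 samples (replicates 1, 2 and 3, the first primary mouth sample being labelled 1a), every one pooled from 75 to 100 embryos, and the labels give no genotype or treatment.

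Otx2 is needed in the mouse for forebrain and midbrain to form, and in Xenopus forced otx2 expression induces cement gland. Otx1 acts beside it in the mouse brain and inner ear. At the rear limit of the Otx domain Otx2 and Gbx2 repress each other, which sets the midbrain-hindbrain boundary. Crx, known in Xenopus also as otx5, is best known in the mouse for activating photoreceptor and pineal genes.

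Cement gland markers were highest in ventral arrays, and they were also read in the other tissues. Summed signals of the 4 cement gland genes ag1.L, ag1.S, agr2.L and agr2.S were 16784 to 23175 in ventral, 5180 to 8705 in primary mouth and 2865 to 3839 in anterior dorsal arrays. The arrays divided by their control probe sets. The ratio of 3' to 5' beta-actin signal, which rises with shortened or incompletely copied RNA, ran from 5.48 to 11.2 in a set of 4 arrays, namely ventral 1, anterior dorsal 1 and primary mouth 1a and 2. In the remaining 5 arrays it ran from 1.46 to 2.03. Signals of the dap control probe set split the arrays in the same way, at 2268 to 3008 in the set of 4 and 540 to 858 in the remaining 5. What lies behind the split was not tested. These sets of arrays cut across the tissues. They are called high-ratio and low-ratio arrays here.

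Both otx1.L and otx2.L were graded, highest in anterior dorsal tissue, intermediate in the primary mouth and lowest in ventral tissue, with no overlap between any of the 3 tissues. Non-overlapping arrays were found for 26.2% of tested probe sets between primary mouth and anterior dorsal tissue, 30% between primary mouth and ventral tissue and 42% between the flanking tissues. The signal of otx1.L (gene ID 394326) was 1006, 767 and 786 in anterior dorsal arrays 1, 2 and 3, 337, 467 and 249 in primary mouth 1a, 2 and 3, and 165, 150 and 98.8 in ventral 1, 2 and 3. The lowest anterior dorsal array thus lay above the highest primary mouth array, and the lowest primary mouth array above the highest ventral one. Means were 853 ± 133 (SD, n = 3), 351 ± 110 and 138 ± 34.7 in that order of tissues, so the anterior dorsal mean was 6.18 times the ventral one.

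On the log2(signal + 16) scale, on which all differences below are given and which understates changes of weak signals, otx1.L differed by -1.28 ± 0.24 (SE) between primary mouth and anterior dorsal tissue. The limma adjusted p, from a fit over all 10011 tested probe sets adjusted by Benjamini-Hochberg and read at a threshold of 0.05, was 0.00432. Primary mouth exceeded ventral tissue by 1.24 ± 0.24 (adjusted p = 0.0041), and anterior dorsal exceeded ventral tissue by 2.51 ± 0.24 (adjusted p = 1.1e-05). The last difference ranked 72 of 10011 from the highest.

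Signals of otx2.L (gene ID 432013) were 414, 443 and 449 in anterior dorsal arrays, 199, 167 and 207 in primary mouth arrays and 80.4, 88.6 and 120 in ventral arrays. The spread within a tissue was small beside the steps between tissues, with means of 435 ± 18.4, 191 ± 21.3 and 96.4 ± 21.0. The differences were -1.13 ± 0.17 for primary mouth minus anterior dorsal, 0.89 ± 0.17 for primary mouth minus ventral and 2.02 ± 0.17 for anterior dorsal minus ventral tissue (limma adjusted p = 0.000981, 0.00382 and 4.25e-06). Probe sets with this order and all 3 contrasts past the threshold were 80 of 10011, or 0.799%, with otx1.L and otx2.L among them.

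**Figure D1:**
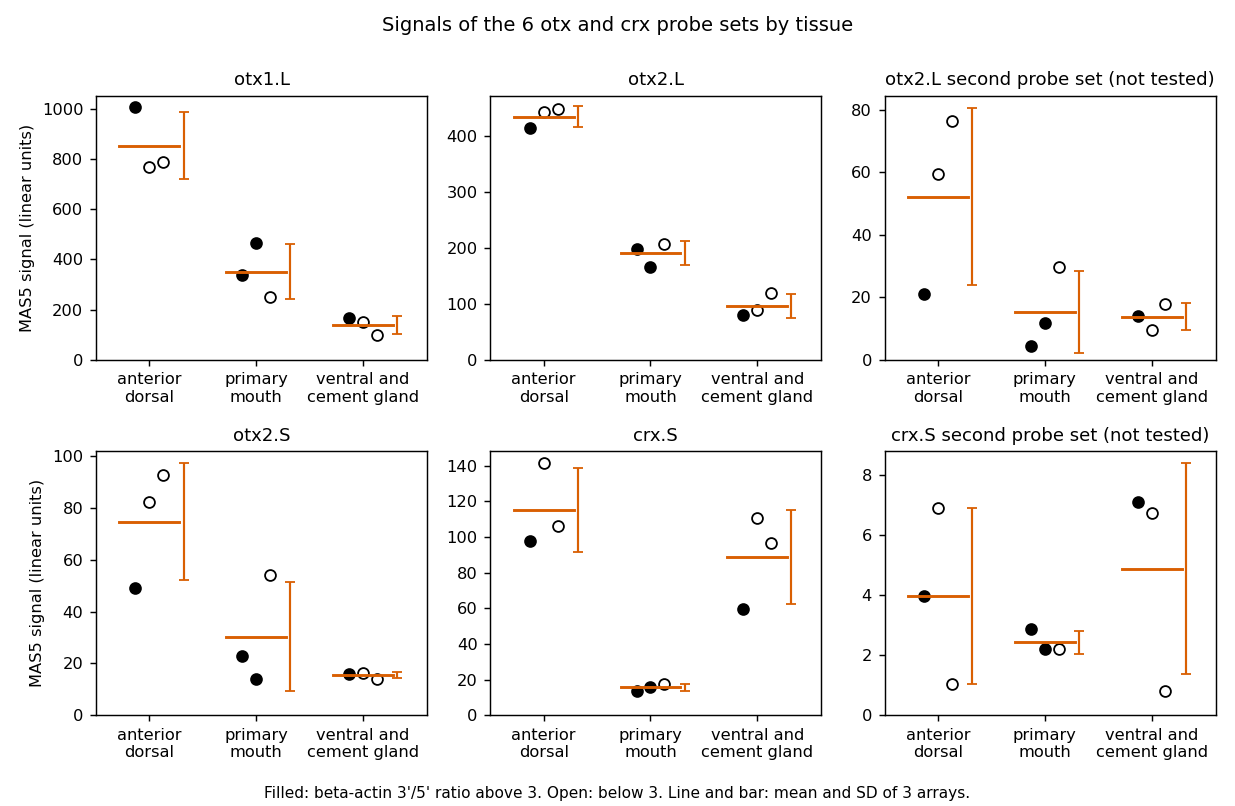
Signal (MAS5 units, linear axis that differs between panels) of each of the 6 probe sets in the 9 arrays, by tissue, with the mean and SD of 3 arrays; filled points are high-ratio arrays and open points low-ratio arrays. Signals of otx1.L and otx2.L step down from anterior dorsal to primary mouth to ventral arrays, whereas crx.S lies between 13.7 and 17.4 in primary mouth and at 59.7 or above in every other array.

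The homeolog otx2.S (gene ID 399342) gave weaker and more variable signals, 49.2, 82.4 and 92.5 in anterior dorsal, 22.8, 13.9 and 54.0 in primary mouth and 15.997, 16.3 and 14.1 in ventral arrays. The filter on low values asked for 3 arrays above the 40th percentile of their array (30.9 to 35.8 units), and otx2.S passed it only through the 3 anterior dorsal arrays and primary mouth 3, so a difference was built into its selection. Primary mouth 3 exceeded anterior dorsal 1, and primary mouth 2 lay below every ventral array. Anterior dorsal exceeded ventral tissue by 1.496 ± 0.28 (adjusted p = 0.00198), while the primary mouth to ventral difference was 0.46 ± 0.28 (95% interval -0.15 to 1.08, adjusted p = 0.311).

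Primary mouth minus anterior dorsal was -1.03 ± 0.28 for otx2.S, with an adjusted p of 0.0392 that was lost on leaving out any of 7 arrays. It became 0.15 and 0.16 without anterior dorsal 2 and 3, 0.125 and 0.148 without primary mouth 1a and 2, and 0.0516, 0.0632 and 0.054 without ventral 1, 2 and 3. The primary mouth to ventral difference was 0.09 within high-ratio arrays, where ventral 1 is the only ventral array, and 1.17 within low-ratio arrays, where primary mouth 3 is the only primary mouth array, so neither value has a replicate check in both tissues.

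The second otx2.L probe set did not pass the filter, with 2 arrays above it. It read 20.9, 59.4 and 76.3 in anterior dorsal, 4.35, 11.8 and 29.7 in primary mouth and 14.0, 9.37 and 17.9 in ventral arrays. Anterior dorsal arrays were again the highest by their mean, 52.2 ± 28.4, but primary mouth (15.3 ± 13.01) and ventral tissue (13.8 ± 4.28) were not separated. In a fit without the filter its differences were -1.104 ± 0.34 for primary mouth minus anterior dorsal (adjusted p = 0.0818), 0.00 ± 0.34 for primary mouth minus ventral and 1.104 ± 0.34 for anterior dorsal minus ventral tissue (adjusted p = 0.0403). The intermediate level of otx2.L in the primary mouth therefore rests on the stronger probe set.

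A different pattern was shown by crx.S (gene ID 373653), which was low in the primary mouth and higher on either side of it. Signals of its stronger probe set were 97.6, 142 and 106 in anterior dorsal, 13.7, 16.02 and 17.4 in primary mouth and 59.7, 111 and 96.4 in ventral arrays. All 6 flanking arrays lay above all 3 primary mouth arrays, while the flanking tissues overlapped each other. All primary mouth signals were below the filter's level, so the filter was passed through the flanking tissues alone.

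The mean of crx.S was 115 ± 23.4 in anterior dorsal tissue, 15.7 ± 1.84 in primary mouth and 88.8 ± 26.2 in ventral tissue. Signals in primary mouth are not shown to be above background, so no fold is given. Primary mouth differences on the log2 scale were -2.03 ± 0.21 and -1.69 ± 0.21 (limma adjusted p = 6.65e-05 and 0.000203). As the filter was passed through the flanking tissues alone, part of both differences was built into the selection of crx.S. In a fit without the filter the limma adjusted p were 9.82e-05 and 0.000299. The size of these differences depends on the pseudocount, being -1.16 and -0.92 with 64 in place of 16, while both calls held. Of tested probe sets, 0.659% were below both flanking tissues in the primary mouth at this threshold. Anterior dorsal minus ventral tissue was 0.34 ± 0.21, with a 95% interval from -0.12 to 0.80 (adjusted p = 0.282).

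The second crx.S probe set passed the filter on 0 arrays and showed no such step. It read 3.95, 6.91 and 1.05 in anterior dorsal, 2.86, 2.19 and 2.21 in primary mouth and 7.10, 6.71 and 0.820 in ventral arrays, and these ranges overlapped between all tissues. Without the filter its primary mouth differences were -0.11 ± 0.15 and -0.17 ± 0.15 (adjusted p = 0.767 and 0.572). The probe sets of crx.S thus disagree, and the fall in the primary mouth is carried by one of them.

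The homeolog crx.L, which was on the array as a probe set of its own, read 49.1, 49.9 and 78.7 in anterior dorsal, 23.4, 5.90 and 32.3 in primary mouth and 22.5, 36.4 and 38.9 in ventral arrays. Primary mouth minus anterior dorsal was -1.09 ± 0.28 (adjusted p = 0.0271). It missed the threshold when array 2 or 3 of anterior dorsal tissue was left out (adjusted p = 0.0598 and 0.126), and when array 1a or 2 of the primary mouth was (0.051 and 0.0823). A pseudocount of 1 (-1.73, adjusted p = 0.0514) ended the call too, and within low-ratio arrays, with primary mouth 3 alone for its tissue, the difference was -0.71. Against ventral tissue, where the arrays overlapped, the difference was -0.47 ± 0.28 (95% interval -1.08 to 0.14, adjusted p = 0.297).

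**Figure D2:**
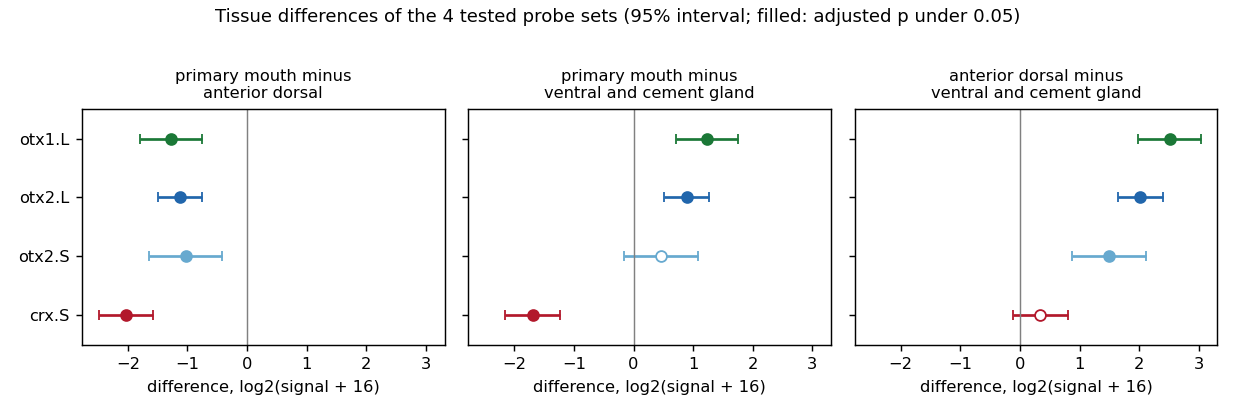
Differences between tissues on the log2(signal + 16) scale for the 4 tested probe sets, with 95% intervals from the limma fit; filled points passed the adjusted threshold of 0.05. All 4 lie below 0 for primary mouth minus anterior dorsal, but against ventral tissue otx1.L (1.24) and otx2.L (0.89) lie above 0 and crx.S (-1.69) below it.

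Read against the whole table, the 4 tested probe sets were below anterior dorsal tissue in the primary mouth, as were 4.87% of all tested probe sets (4.68% were above it). Against ventral tissue otx1.L and otx2.L were higher, as were 4.42% of probe sets, and crx.S was lower, as were 10.1%. Anterior dorsal tissue exceeded ventral tissue in otx1.L, otx2.L and otx2.S, beside 10.5% of probe sets (14.1% were lower). These counts describe the 4 that passed the filter, among them otx2.S and crx.S, which passed it through their high tissues. Contrasts that share the primary mouth or another tissue share its 3 arrays.

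Whether the genes differed in how they changed was tested on the log ratio of a pair of genes within each array. Over the 6 pairs, the ratios of otx1.L, otx2.L and otx2.S to crx.S passed the test, and the ratios among the otx genes did not. With a pseudocount of 64 the ratio of otx1.L to crx.S missed the threshold (exact permutation test, adjusted p = 0.0536) and that of otx2.L to otx2.S passed it (0.0214). Ratios in primary mouth rest on crx.S signals about the size of the pseudocount. As crx.S passed the filter through the flanking tissues alone, part of a tissue difference in its ratios was built into its selection. The tests of these pairs are therefore not independent of that selection, and their p-values are given without drawing support from them. In the flanking tissues the ratios rest on crx.S signals above the filter's level. The log2 ratio of otx2.L to crx.S was 1.92, 1.54 and 1.93 in anterior dorsal, 2.85, 2.51 and 2.74 in primary mouth and 0.35, -0.27 and 0.28 in ventral arrays. No tissue overlapped another, and the exact permutation test over 1680 arrangements of the 9 arrays (two-sided F statistic) gave p = 0.00357, the smallest it can give, and an adjusted p of 0.0107 over the 6 pairs.

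For otx1.L and crx.S the mean log ratios were 2.73 ± 0.43, 3.49 ± 0.47 and 0.56 ± 0.63 (SD, n = 3) in anterior dorsal, primary mouth and ventral tissue (exact permutation p = 0.00714, adjusted 0.0143). For otx2.S and crx.S they were -0.55 ± 0.34, 0.45 ± 0.59 and -1.71 ± 0.40 (exact permutation p = 0.00357, adjusted 0.0107), and no support is drawn from that test. Both genes passed the filter through their high tissues, and crx.S in primary mouth and otx2.S in ventral tissue lay below the filter's level. In each of these pairs the ratio was highest in primary mouth and lowest in ventral tissue. Such a ratio shows unequal change over the tissues, not that one transcript outnumbers the other.

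Among the otx genes the log ratio of otx1.L to otx2.L averaged 0.94 ± 0.27, 0.79 ± 0.58 and 0.44 ± 0.61 in anterior dorsal, primary mouth and ventral tissue (exact permutation p = 0.518, adjusted 0.518). The ratio of otx2.L to otx2.S averaged 2.35 ± 0.33, 2.25 ± 0.50 and 1.82 ± 0.31 (exact permutation p = 0.332, adjusted 0.399), and that of otx1.L to otx2.S 3.28 ± 0.60, 3.04 ± 1.05 and 2.27 ± 0.30 (exact permutation p = 0.279, adjusted 0.399). The SDs of up to 1.05 leave room for differences between these genes that 9 arrays did not resolve.

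**Figure D3:**
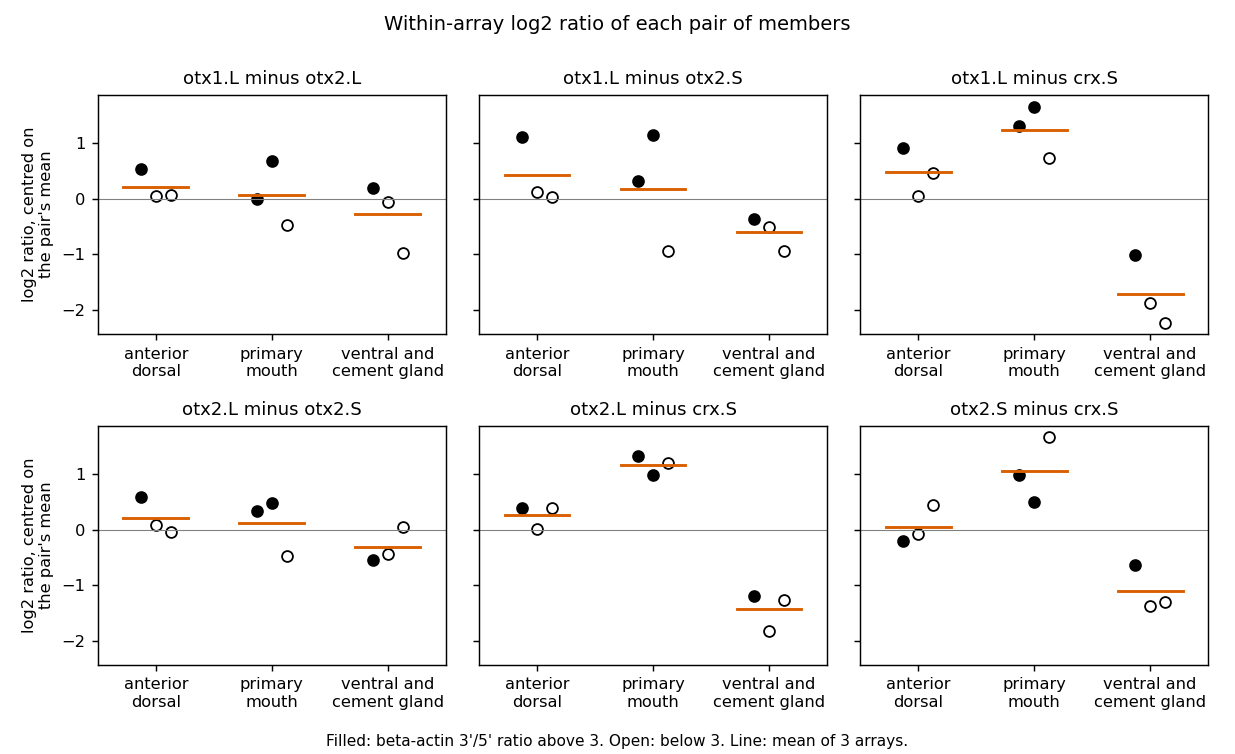
Log2 ratio of each pair of genes within an array, centred on the mean of the 3 tissue means, by tissue; filled points are high-ratio and open points low-ratio arrays, and lines are means of 3 arrays. The 3 panels with crx.S have their highest mean in primary mouth and their lowest in ventral tissue, and in the panels without crx.S the primary mouth overlaps both flanking tissues.

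Members differed with the control ratio in opposite directions. With tissue in the model, otx1.L was lower in low-ratio than in high-ratio arrays by -0.47 ± 0.14 (limma adjusted p = 0.0275), and otx2.S was higher by 0.55 ± 0.18 (adjusted p = 0.0345). At the same threshold 25.6% of tested probe sets differed between these arrays. For otx2.L and crx.S the differences were 0.19 ± 0.12 and 0.35 ± 0.14 (adjusted p = 0.262 and 0.0842).

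The tissue differences of otx1.L, otx2.L and crx.S kept their directions within each set of arrays. High-ratio arrays hold 1 anterior dorsal and 1 ventral array and low-ratio arrays 1 primary mouth array, so the values within sets are given without a test. Primary mouth minus anterior dorsal was -1.31 in high-ratio and -1.58 in low-ratio arrays for otx1.L, -1.12 and -1.05 for otx2.L and -1.88 and -2.05 for crx.S. Primary mouth minus ventral tissue was 1.19 and 0.94 for otx1.L, 1.04 and 0.90 for otx2.L and -1.29 and -1.84 for crx.S. Anterior dorsal minus ventral tissue was 2.496 and 2.52 for otx1.L, 2.16 and 1.95 for otx2.L, and 0.59 and 0.22 for crx.S. For otx2.S the values were -0.94 and -0.56 for the first of these contrasts and 1.03 and 1.73 for the last.

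Bulk tissue pieces were measured, so fewer cells of a type and less RNA per cell cannot be told apart. The summed level of forebrain and neural tube markers had the order of otx1.L and otx2.L, as had the means of 6 of its 8 genes. The summed signal of 8 such genes (sox2, sox3, ncam1, tubb3, emx2 and elavl3 by their measured copies, 7 of them tested) was 2440 to 2681 in anterior dorsal, 607 to 807 in primary mouth and 305 to 408 in ventral arrays. The largest part came from sox3.S, which averaged 1088 in anterior dorsal tissue, and tubb3.L (26.9 and 45.5) and emx2.L (9.35 and 10.1) were lower in primary mouth than in ventral tissue by their means. The neural progenitor factor sox2.L read 380, 155 and 66.4 on average in these tissues. Their part in the otx differences was not tested. Eye markers (8 genes, 3 tested) summed to 617 to 843, 454 to 549 and 36.0 to 101 in the same order of tissues, and their part was likewise not tested.

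The summed level of head mesenchyme and neural crest markers was lowest in primary mouth, though the range there overlapped that of ventral tissue. Measured copies of sox10 and snai2 (3 genes, 0 tested) summed to 55.0 to 63.6 in anterior dorsal, 15.2 to 35.4 in primary mouth and 32.3 to 45.3 in ventral arrays, and their part in the crx.S difference was not tested. All were too weak for the filter. The largest part in anterior dorsal tissue came from sox10.L (mean 36.0), whereas snai2.S was highest in ventral tissue (14.4). Epidermal markers (8 genes) summed to 14802 to 15868, 21293 to 25902 and 22201 to 28980, and endodermal ones (4 genes) to 22.7 to 46.8, 92.5 to 138 and 122 to 173.

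Genes that act with Otx factors in the anterior neural plate and head organizer included 8 of 16 tested that passed all 3 contrasts in the order of otx1.L and otx2.L. Of all tested probe sets 0.799% did so. The count was 2 of 11 for optic field, retina and lens genes, 2 of 9 for other paired-class homeobox genes and 1 of 12 for boundary and hindbrain genes. It was 0 of 6 for photoreceptor and pineal genes and 0 of 14 for cement gland and anterior ectoderm genes. The lists share genes, pax6.L among them. Against anterior dorsal tissue 11 were lower and 3 higher in the primary mouth (median difference -1.60, against -0.01 over all tested probe sets), and against ventral tissue 12 were higher and 0 lower (median 1.06 against 0.06). Anterior dorsal tissue exceeded ventral tissue in 12 and was lower in 1 (median 2.53 against 0.04). Over all tested probe sets 4.87% were lower and 4.68% higher in the first of these contrasts. In the second 4.42% were higher and 10.1% lower, and in the third 10.5% were higher and 14.1% lower. These shares stand beside the counts of the lists below too. The dorsal telencephalic factor emx2.L (-2.89 ± 0.32), the eye and forebrain factor pax6.L (-2.44 ± 0.27), the forebrain zinc finger gene fezf2.L (-2.16 ± 0.20) and the neural factor sox3.S (-2.16 ± 0.24) were the lowest in primary mouth against anterior dorsal tissue, with adjusted p of 3.67e-05 to 0.000107. Of these, emx2.L passed the filter through the anterior dorsal arrays alone, so a difference was built into its selection. The hypothalamic gene nkx2-1.L (2.14 ± 0.19) and the eye field gene six3.L (1.89 ± 0.16) led the increases over ventral tissue (adjusted p = 1.66e-05 and 1.27e-05). Ventral signals of both lay below the filter's level, so part of these increases was built into their selection.

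The 3 genes of this list with more signal in the primary mouth than in anterior dorsal tissue went against the otx order. They were hesx1.L, a pituitary and anterior neural repressor gene (1.79 ± 0.27), the organizer homeobox gene gsc.L (1.63 ± 0.19) and the Wnt antagonist gene dkk1.S (1.39 ± 0.33), with adjusted p of 0.00102, 0.00012 and 0.0173. Signals of gsc.L were 44.8 to 68.6 in primary mouth, 5.66 to 6.92 in anterior dorsal and 11.3 to 24.8 in ventral arrays. These ranges did not overlap, but those of both flanking tissues lay below the filter's level. The gsc.L call between the flanking tissues, the 1 lower call counted above, was lost when any anterior dorsal array was left out (adjusted p = 0.0899, 0.0914 and 0.114), and with primary mouth 1a (0.0505), ventral 1 (0.147) or ventral 3 (0.0881) left out. It was also lost with a pseudocount of 64 (limma adjusted p = 0.113), without the filter (0.0541) and with quantile normalization (0.0535). With array 3 of anterior dorsal tissue left out, dkk1.S missed the threshold (adjusted p = 0.0715). The 3 genes were singled out after their values were seen. Both hesx1.L and gsc.L passed the filter through the primary mouth arrays alone, so a higher signal there was built into their selection.

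Genes of the midbrain-hindbrain boundary and hindbrain changed in both directions. Against anterior dorsal tissue 1 of 12 tested genes was higher in primary mouth and 3 were lower (median -0.18), and against ventral tissue 2 were higher and 4 lower (median -0.14). Between the flanking tissues 4 were higher and 4 lower in anterior dorsal tissue (median -0.17). The boundary gene en2.L kept the order of otx2.L, with 108 ± 6.94 in anterior dorsal, 50.8 ± 15.0 in primary mouth and 24.3 ± 4.88 in ventral tissue. Its differences were -0.91 ± 0.19 for primary mouth minus anterior dorsal, 0.71 ± 0.19 for primary mouth minus ventral and 1.62 ± 0.19 for anterior dorsal minus ventral tissue (adjusted p = 0.00839, 0.0255 and 5.47e-05). The second of these calls was lost without primary mouth 2 (0.0917), ventral 2 (0.0966) or ventral 3 (0.0981). All ventral signals of en2.L lay below the filter's level, so part of its differences from ventral tissue was built into its selection. Within high-ratio arrays, which hold 1 anterior dorsal and 1 ventral array, the first and second differences were -0.92 and 0.49.

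The Otx2 antagonist gbx2.2.L ran the other way, with 11.7 ± 2.82 in anterior dorsal, 25.7 ± 12.5 in primary mouth and 45.1 ± 8.38 in ventral tissue. Anterior dorsal was below ventral tissue by -1.14 ± 0.21 (adjusted p = 0.00161). All its anterior dorsal signals lay below the filter's level, and it passed the filter through the ventral arrays and its highest primary mouth array. A difference was thus built into its selection. Neither primary mouth difference passed (0.55 ± 0.21 and -0.58 ± 0.21, adjusted p = 0.131 and 0.0865), but the first passed without primary mouth 3 (0.0461) and the second without primary mouth 2 (0.0128) and with the control ratio as a term (0.0295). The second copy on the array, gbx2.1.S, had tissue means between 5.68 and 8.93, too low for the filter.

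Cement gland and anterior ectoderm genes followed neither otx2 nor crx.S as a group. In the primary mouth 8 of 14 tested were higher and 0 lower against anterior dorsal tissue (median 0.90), and 4 higher and 6 lower against ventral tissue (median -0.41). There were 0 higher and 8 lower in anterior dorsal than in ventral tissue (median -1.04). The increases of primary mouth over ventral tissue were led by frzb.S (3.65 ± 0.33), frzb.L (3.17 ± 0.41) and cpn1.S (2.30 ± 0.22). Their limma adjusted p were 2.06e-05 to 0.000256. Ventral signals of frzb.S and cpn1.S lay below the filter's level, so part of their differences was built into their selection. The disulfide isomerase gene agr2.L, a marker of the cement gland, averaged 292 in anterior dorsal, 1165 in primary mouth and 3204 in ventral tissue, the reverse order of otx2.L. The related agr2.S (-4.06 ± 0.38) and ag1.L (-2.23 ± 0.21) were likewise lower in anterior dorsal than in ventral tissue (adjusted p = 9.54e-06 and 1.1e-05). The homeobox gene pitx1.L was highest in primary mouth, at 213 ± 24.6, whereas anterior dorsal tissue had 28.5 ± 3.09 and ventral tissue 143 ± 38.9 (2.36 ± 0.20 and 0.55 ± 0.20, adjusted p = 2.09e-05 and 0.0924). All anterior dorsal signals of pitx1.L lay below the filter's level, so part of its difference from that tissue was built into its selection.

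Of photoreceptor and pineal genes, the best known setting of Crx, 6 of 17 on the array were tested. Of these, 0 passed as lower in primary mouth against both flanking tissues. The share over all tested probe sets was 0.659%, so a count of 0 among 6 says little about these genes. In primary mouth against anterior dorsal tissue 4 were lower and 0 higher (median -1.23), against ventral tissue 0 were lower and 1 was higher (median 0.09), and 5 were higher in anterior dorsal than in ventral tissue and 0 lower (median 1.52). The retinal opsin gene rgr.S read 127 ± 27.9 in anterior dorsal, 2.11 ± 0.614 in primary mouth and 5.19 ± 4.10 in ventral tissue. The neurogenic factors neurod1.L (99.6, 16.04 and 14.5) and neurod4.L (57.8, 15.4 and 12.7) in the same order of tissues likewise passed both contrasts with anterior dorsal tissue, where they were highest (adjusted p = 4.45e-05 to 0.000433). These genes and rgr.S passed the filter through the anterior dorsal arrays alone, so a higher signal there was built into their selection. Their primary mouth and ventral signals both lay below the filter's level, which left little room for a lower call against ventral tissue.

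Of 9 defining photoreceptor and pineal markers 8 were too weak for the filter. Mean signals in the 3 tissues ran from 1.67 to 4.66 for the retinoid binding protein gene rbp3.L, 3.79 to 7.17 for the rod transducin gene gnat1.L and 13.3 to 17.7 for the melatonin enzyme gene aanat.L, and none of these was tested. The cone arrestin gene arr3.L passed the filter, with means of 91.8 in anterior dorsal, 66.8 in primary mouth and 112 in ventral tissue. Its primary mouth differences, -0.56 ± 0.34 and -0.82 ± 0.34, had the direction of those of crx.S but did not pass (adjusted p = 0.356 and 0.136). Unlike those of crx.S, its primary mouth signals ran from 27.9 to 127. That range covered the anterior dorsal (83.2 to 108) and ventral arrays (104 to 126). The retinal pigment epithelium gene rpe65.S was strong in all tissues, with 1304, 1783 and 708 in the same order. The 9 markers summed to 141 to 149 in anterior dorsal, 70.6 to 176 in primary mouth and 157 to 167 in ventral arrays. Both arr3.L and rpe65.S were singled out after their values were seen.

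Of optic field, retina and lens genes 11 were tested, with pax6.L, lhx2.L and six3.L among them already counted as anterior neural genes. Against anterior dorsal tissue 1 was higher and 4 were lower in primary mouth (median -0.29), against ventral tissue 6 were higher and 4 lower (median 0.61), and 6 were higher and 3 lower in anterior dorsal than in ventral tissue (median 1.57). The eye field gene six6.L (3.39 ± 0.25) and the limb and eye gene tbx3.S (-2.66 ± 0.17) were the extremes between primary mouth and ventral tissue (adjusted p = 4e-06 and 1.8e-06). The retinal bipolar cell gene vsx1.L was lower in the primary mouth against anterior dorsal tissue (-1.46 ± 0.25, adjusted p = 0.00249). It passed the filter through the anterior dorsal arrays alone, so a difference was built into its selection. The eye field gene rax had mean signals of 4.16 to 17.9 over both copies and was not tested.

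Of 9 other tested homeobox genes of the paired class, the family of the otx and crx genes, 4 were higher and 3 lower in the primary mouth against anterior dorsal tissue (median 0.45). Against ventral tissue, where crx.S was lower, 6 were higher and 0 lower (median 1.45). The lists overlap: pax6.L, hesx1.L, gsc.L, vsx1.L, pitx3.L and pitx1.L were already counted in the lists above. Of the 6 higher against ventral tissue, only alx1.L and pax3.S were in no other list. In anterior dorsal against ventral tissue 4 were higher and 2 lower (median 0.27). The craniofacial gene alx1.L (3.08 ± 0.19), the neural crest gene pax3.S (2.32 ± 0.25) and the lens gene pitx3.L (2.12 ± 0.28) led the increases over ventral tissue (adjusted p = 1.62e-06 to 0.000289). Of these, pitx3.L passed the filter through the primary mouth arrays alone, so a higher signal there was built into its selection. Ventral signals of alx1.L and pax3.S also lay below the filter's level, so part of their differences was built in too.

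**Figure D4:**
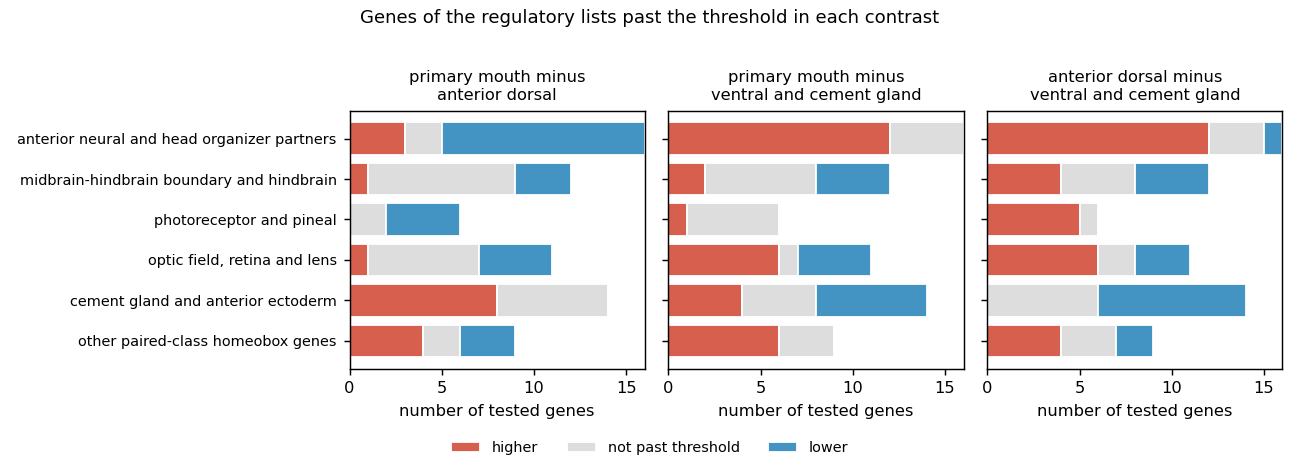
Number of tested genes higher, lower or not past the threshold (limma adjusted p 0.05) in each contrast, for 6 lists of genes that share a pathway or place of expression with the otx and crx genes, which are left out of the lists. In the primary mouth, anterior neural genes are mostly lower against anterior dorsal tissue (11 of 16) and higher against ventral tissue (12 of 16), and cement gland and anterior ectoderm genes go the other way between the flanking tissues (0 higher and 8 lower of 14).

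Genes with the most similar pattern were sought among 764 named genes whose tissue means spanned at least 1 on the log2 scale, by Pearson's r over the 9 arrays. These r values describe likeness only, as the arrays share tissue and control ratio. For otx1.L the closest 5 were zic5.S (r = 0.991), celf3.S (0.99), dpysl3.L (0.982), nkain4.S (0.981) and pax3.S (0.981). The stronger copy pax3.L did not have this order, with means of 666 in anterior dorsal, 896 in primary mouth and 890 in ventral tissue. The zinc finger factor gene zic5.S averaged 208, 55.3 and 12.3 in anterior dorsal, primary mouth and ventral tissue, and the neuronal axon gene dpysl3.L 980.5, 182 and 49.1.

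The 5 closest to otx2.L were the nucleoside enzyme gene pnp.L (0.991), arl6ip1.L (0.984), the replication helicase gene mcm4.S (0.979), the forebrain LIM homeobox gene lhx2.L (0.978) and the forkhead gene foxd1.L (0.975). Means of lhx2.L were 194, 64.3 and 39.2 in anterior dorsal, primary mouth and ventral tissue. For otx2.S the 5 were mst1.L (0.979), the histone chaperone gene asf1b.L (0.978), the replication clamp gene pcna.S (0.977), the ribonucleotide reductase gene rrm1.L (0.969) and the chemokine receptor gene cxcr4.L (0.966). The highest primary mouth array of pcna.S read 746 and the lowest 410.0, and the corresponding range of rrm1.L was 518 to 932, so these genes also varied within the primary mouth. A choice by likeness to otx2.S, which varied there too, favours such genes.

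For crx.S the closest were the lactate transporter gene slc16a3.L (0.968), the synuclein gene sncg.S (0.96), the midline ubiquitin ligase gene mid1.L (0.951), the adhesion gene kirrel2.L (0.935) and the hexokinase gene hk1.L (0.92). Each was lowest in primary mouth by its mean, which follows from the choice by likeness to crx.S over the same arrays. Signals of slc16a3.L were 116 to 205 in anterior dorsal, 32.6 to 40.2 in primary mouth and 87.4 to 127 in ventral arrays, and those of mid1.L 156 to 182, 74.9 to 81.1 and 151 to 227. No gene was among the closest 5 of more than one member.

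Among the members themselves, r over the 9 arrays was 0.907 between otx1.L and otx2.L, 0.884 between otx2.L and otx2.S and 0.729 between otx1.L and otx2.S. After the mean of each set of arrays by control ratio was subtracted, these became 0.957, 0.919 and 0.9. Between crx.S and the otx genes r was 0.129 to 0.333 before and 0.175 to 0.256 after that step.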

How the data were processed

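RNA of 9 samples, 3 per tissue, was measured on Affymetrix arrays. The deposited values are linear signal intensities, 1 for each probe set in each sample, made by the authors with MAS5 according to the submitters' processing notes. Its version and settings are not stated there. The 2% trimmed mean was 150 on every array, so the deposited scaling was kept. MAS5 detection calls were not used here, and low signals were not read as absence. Medians were 50.9 to 59.2, and the number of arrays limits precision. No 2 arrays were identical. Separate clutches are not named in the labels, so the spread behind each p-value may be purely technical.

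Of 15611 probe sets, 120 controls were left out; 9304 of the rest have 1 gene symbol, 195 several and 5992 none. By gene ID 9227 matched RefSeq names (Xenopus_laevis_v10.1), which updated 2 symbols. No coordinates are given, because the files name no genome build.

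Signals were analysed as log2(signal + 16). Probe sets with at least 3 of 9 arrays above the 40th percentile of their array were tested (10011) in 1 model with a mean per tissue (limma 3.58.1, R 4.3.3, lmFit and eBayes with trend, 6 residual degrees of freedom, two-sided, Benjamini-Hochberg). On simulated data with 10011 probe sets, the fit was checked to recover known changes. Pairs of members were compared by exact permutation of an F statistic. List genes were represented by their brightest tested probe set. A gene high in only 1 tissue can pass the filter through that tissue alone, so list counts hold differences built into selection.

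The members and lists were chosen with earlier results of these data known. Planned for naming were all member probe sets, the 5 genes most like each, up to 4 genes per list and contrast by size of change, and ag1, agr2, pitx1, hesx1, gbx2, en2, six3, rax, pax6 and rbp3. Of the genes picked by size of change only some are shown, and hoxa2.L, hoxa2.S and irx2.L are among those left out. Genes added after values were seen were gsc.L, dkk1.S, sox2.L, rgr.S signals, gnat1.L, aanat.L, crx.L, arr3.L, rpe65.S, pax3.L, sox10.L and snai2.S.

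Alternatives were the pseudocount, filter, normalization, eBayes settings, control ratio as a term and within its sets of arrays, only the 6 arrays compared, the replicate number as a block, and leaving out each array.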

Additional observations from a re-analysis of the deposited data

How the results depend on the processing

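Every contrast of otx1.L, otx2.L and crx.S kept its direction and its side of the threshold in all 21 alternative fits, with primary mouth minus anterior dorsal between -1.58 and -1.06, -1.19 and -0.97, and -2.78 and -1.16. The call of otx2.S for that contrast was lost with a pseudocount of 1 (-1.44, adjusted p = 0.0544), without the filter (-1.03, 0.0509) and with only the 6 arrays compared (-1.03, 0.0812). Its difference was -0.94 within high-ratio and -0.56 within low-ratio arrays, and ranged from -1.38 to -0.76 on leaving out single arrays. The cause was not tested. Its primary mouth to ventral difference passed with the control ratio as a term (0.65, adjusted p = 0.0409) and was 1.17 within low-ratio arrays, which hold 1 primary mouth array. Its anterior dorsal to ventral difference was 1.03 within high-ratio arrays, which hold 1 array of each of these tissues. Fits within the sets of high-ratio and low-ratio arrays have 1 and 2 residual degrees of freedom and at least 1 tissue with 1 array, assumed to vary like the others, so a call kept or missed there says little about stability. The filter at the 60th percentile left out otx2.S.

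With a pseudocount of 64 the ratio test of otx1.L and crx.S had an adjusted p of 0.0536 and that of otx2.L and otx2.S 0.0214; the other ratio tests kept their side of the threshold. Probe sets past the threshold numbered 957, 1452 and 2469 in the contrasts of primary mouth with anterior dorsal, primary mouth with ventral and anterior dorsal with ventral tissue. They numbered 1603 and 2258 in the first and second with the control ratio as a term, and 514, 760 and 1043 within high-ratio arrays (fewer arrays). On leaving out single arrays the counts were 608 to 1127, 955 to 1727 and 1858 to 2711, falling by over 1.5 times without anterior dorsal 2 (618) or 3 (608) for the first and without ventral 3 (955) for the second. With the replicate block they were 1654 and 2352 in the first and second, and no call of a member changed. Same-numbered arrays deviated together in 7 of 9 pairs (r from -0.23 to 0.68), and 8 of 9 arrays correlated best with their own number, a hint from the data and not the design. However, r was positive in every pair within a set by control ratio and negative in every pair across the sets. Arrays numbered 1 were all high-ratio and those numbered 3 all low-ratio. The high-ratio array primary mouth 2 went with anterior dorsal 1 (r = 0.45) and ventral 1 (0.44), not with its own number (-0.23 and -0.12). Agreement by number, and the replicate block, thus overlap with the control ratio. List counts, both directions together, stayed within 1.5 times with the control ratio as a term and with the block. By direction, counts moved by at most 2 genes with the control ratio as a term. Then 1 photoreceptor and pineal gene, in place of 0, had more signal in primary mouth against anterior dorsal tissue. Likewise 1 cement gland and anterior ectoderm gene, in place of 0, was higher in anterior dorsal than in ventral tissue. Other alternatives were not run on the list counts. Of 56 calls of 25 other named genes, 14 were lost in at least 1 of 20 alternative fits, 5 of them outside the fits within a set of arrays, and 0 reversed. Both primary mouth differences of gbx2.2.L passed with the replicate block (adjusted p = 0.0453 and 0.0282). Within high-ratio arrays, which hold 1 anterior dorsal and 1 ventral array, anterior dorsal minus ventral tissue was -0.93 for gbx2.2.L and 1.01 for neurod4.L.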
